A study of Saccharomyces cerevisiae with 16 samples.

Results

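Oxidative phosphorylation (OXPHOS) in yeast mitochondria is built from proteins of both the nuclear and the mitochondrial genome. The genes described here are 42 nuclear genes for subunits of complex II (4 genes), complex III (9), cytochrome c (2), complex IV (9), ATP synthase with its inhibitor protein (15) and the single-subunit NADH dehydrogenases (3). They were chosen by systematic ID, not by any measured value, from the 7126 genes listed for Saccharomyces cerevisiae. All 42 were listed and passed the filter on low counts, with 462 to 28789 reads per gene and library.

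The study set polysomal against total poly(A) mRNA in spheroplasts, yeast cells without their wall, that had been electroporated. Every group carried the same deletion, trm10∆, which removes the gene of a tRNA methyltransferase, so no library came from a TRM10 strain. The electroporated RNA was rancRNA_18, a small ribosome-associated RNA named in earlier work as a product of the TRM10 transcript, or rancRNA_18-M2, whose sequence change the sources used here do not give, or none. The groups were rancRNA_18 polysomal (2 files that were identical and were counted as 1 library) and total (2 libraries), rancRNA_18-M2 polysomal and total (3 each), and no RNA polysomal and total (3 each). The labels do not say whether replicates came from separate cultures, so p-values measure the spread between these libraries, which may be technical.

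In respiration, electrons pass from NADH dehydrogenases and from succinate dehydrogenase (complex II) through ubiquinone to complex III, from there through cytochrome c to complex IV, and on to oxygen. Complexes III and IV pump protons across the inner membrane, and ATP synthase uses the gradient to make ATP. S. cerevisiae lacks the multi-subunit complex I and oxidises NADH with single-chain enzymes instead. In this yeast glucose represses many of these genes, the HAP2/3/4/5 complex activates them, and oxygen and heme choose between isoforms such as COX5A and COX5B or CYC1 and CYC7. The catalytic cores of complex IV and part of complexes III and V are made inside the organelle, while most nuclear subunits of complex IV and many of ATP synthase are very small proteins. How many ribosomes an mRNA can carry depends on the length of its coding sequence.

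The proteins had 59 to 640 residues with a median of 149.5, whereas the median of the genes tested that have an annotated coding sequence was 407.5. Below 150 residues were 21 of the 42, and they are called small here. Complexes held 8 small subunits of 15 in ATP synthase, 6 of 9 in complex IV, 5 of 9 in complex III, 2 of 2 in cytochrome c and 0 in complex II and the NADH dehydrogenases. To show how short these mRNAs are, the 3 shortest coding sequences are given in full from RefSeq R64, with start and stop codons in capitals. ATP18 encodes subunit i/j of ATP synthase, while COX9 (subunit VIIa) and COX7 (subunit VII) encode parts of complex IV that surround its mitochondrially made core. ATP18 and COX7 lie on the minus strand of chromosome XIII and COX9 on the minus strand of chromosome IV.
ATP18: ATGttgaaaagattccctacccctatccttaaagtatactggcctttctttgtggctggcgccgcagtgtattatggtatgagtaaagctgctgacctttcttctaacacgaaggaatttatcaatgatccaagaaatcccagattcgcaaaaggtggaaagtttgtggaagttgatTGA
COX9: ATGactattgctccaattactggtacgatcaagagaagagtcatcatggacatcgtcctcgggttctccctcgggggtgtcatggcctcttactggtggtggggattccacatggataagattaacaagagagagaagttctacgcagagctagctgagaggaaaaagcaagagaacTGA
COX7: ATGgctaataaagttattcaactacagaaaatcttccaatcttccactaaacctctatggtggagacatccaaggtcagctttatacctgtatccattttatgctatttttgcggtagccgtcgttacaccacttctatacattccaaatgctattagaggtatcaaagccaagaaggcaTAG
The first 2 of these have 180 coding bases and COX7 has 183. The longest coding sequence of the set, that of SDH1, has 1923. An intron interrupts 3 of the genes, QCR9, QCR10 and COX5B, and 0 of the 42 overlap another annotated gene.

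Libraries held 16691019 to 31148081 reads in genes. TRM10 had 0 to 5 reads in a library and 19 in all libraries together. Values are counts scaled to library size (CPM), so a group of genes is measured as a part of all poly(A) mRNA, and fewer cells with a transcript cannot be told apart from less transcript per cell. The 7 mitochondrially encoded subunits had 0 to 5 reads together in a library after poly(A) selection, so the mitochondrial side of the complexes was not measured. Libraries with the same replicate number deviated together in the 5 groups with more than 1 library (r of 0.429 to 0.794 in 26 of 26 pairs). The planned fit has no term for the number, and a fit with the number as a block stands beside it wherever it changes a call.

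Together the 42 genes made up 1.20 to 2.13% of a library's reads. With rancRNA_18-M2 the share was 1.51, 2.07 and 1.58% in the polysomal and 1.41, 1.64 and 1.24% in the total libraries of replicates 1, 2 and 3. Without RNA it was 1.51, 2.13 and 1.33% in polysomal and 1.30, 1.79 and 1.20% in total mRNA. With rancRNA_18 it was 1.51% in the polysomal library and 1.22 and 1.63% in total mRNA. Each polysomal library of the rancRNA_18-M2 and no RNA groups lay above the total library of its own number, but the groups overlapped, because replicate 2 was high in both fractions. The group means were 1.72 ± 0.30% polysomal and 1.43 ± 0.20% total with rancRNA_18-M2, and 1.66 ± 0.42% polysomal and 1.43 ± 0.32% total without RNA (SD, n = 3 each).

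**Figure D1:**
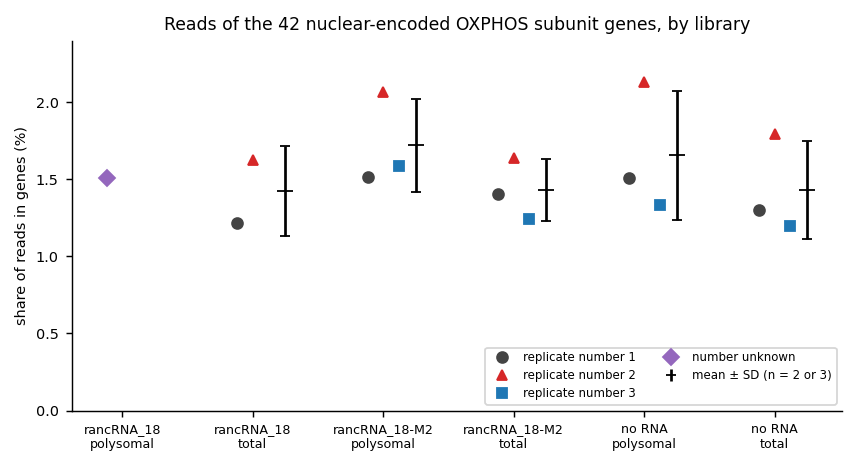
Share of the reads in genes (y axis, %) taken by the 42 subunit genes in each library, by group (x axis); symbols give the replicate number, and black bars the mean ± SD where a group has 2 or 3 libraries. Replicate 2 was the highest library of every group that has one, and the 15 libraries spanned 1.20 to 2.13%.

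Levels between genes are compared as CPM per kb of coding length, as the median over the 15 libraries. Almost all members were abundant, with 41 of 42 above the median of the 5744 genes that have a coding length, which was 32.1 CPM per kb. The highest were COX9 at 2634, ATP15 (the epsilon subunit of ATP synthase) at 2436 and ATP18 at 2336 CPM per kb. The lowest was NDE2, an external NADH dehydrogenase, at 23.0 CPM per kb, 114.5 times below COX9. These neighbours in the order did not stand apart, since COX9 alone ranged from 1496 to 5229 CPM per kb over the libraries. Median levels of the subunits of a complex were 1078 CPM per kb in ATP synthase, 1015 in complex IV, 604 in complex III, 515 in cytochrome c, 437 in complex II and 83.9 for the NADH dehydrogenases.
Subunits of a complex were not equally abundant. Within ATP synthase they ran from 2436 CPM per kb for ATP15 to 360.4 for ATP1, the alpha subunit, and within complex III from 1610 for QCR7 to 149 for CYT1, cytochrome c1. Complex II spanned 664 for the membrane anchor SDH4 to 83.3 for the flavoprotein SDH1, and complex IV 2634 for COX9 to 494 for COX4. CPM per kb divides all reads counted for a gene by its coding length. The sources used here do not say whether reads in untranslated stretches were counted. Such reads would raise the value most in the shortest genes, and their effect on this order was not tested.

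Whether these mRNAs are more or less represented on polysomes than in the whole lysate was tested in each electroporation. In the planned fit without the block, 0 of 42 members passed in any electroporation at an adjusted p under 0.05 by edgeR's quasi-likelihood test with Benjamini-Hochberg adjustment over 6106 genes. Among all genes 0.0819% were called higher and 0.295% lower with rancRNA_18-M2, 0% and 0.197% without RNA, and 0% in both directions with rancRNA_18. At an unadjusted p under 0.05 there were 17, 7 and 4 members in the same order, and DESeq2 called 4 members with rancRNA_18-M2 and 0 in the others.
With the replicate block the picture changed: 29 members rose and 2 fell in polysomes with rancRNA_18-M2, and 28 rose and 1 fell without RNA, by the same test. The background of all genes was 16.8% higher and 15.0% lower with rancRNA_18-M2, and 12.3% higher and 9.48% lower without RNA. Without replicate 2 of the no RNA polysomal libraries 18 members rose and 0 fell there, while leaving out a rancRNA_18-M2 library left 27 to 29 that rose and 1 to 4 that fell in that group. The calls over all genes changed too. Without that no RNA library 485 genes were higher and 309 lower, against 753 and 579 with all libraries. Without a rancRNA_18-M2 library 778 to 1046 were higher and 554 to 1060 lower, against 1023 and 916. Of the members called with all libraries, 26 of 31 with rancRNA_18-M2 and 18 of 29 without RNA passed whichever single library of the 6 was left out. The others were COR1, COX5A, ATP14, ATP15 and SDH4 with rancRNA_18-M2, and ATP4, ATP5, ATP14, ATP19, ATP20, COX4, COX9, COX13, CYC1, QCR6 and NDI1 without RNA, all of which kept their direction. The members' median log2 fold change was 0.56 with rancRNA_18-M2 and 0.47 without RNA, against -0.01 and -0.03 for all genes tested. In the pairs of libraries, 32 members were higher in the polysomal library of all 3 numbers with rancRNA_18-M2 and 31 without RNA, against 27.7 and 25.2% of all genes. For 12 members every rancRNA_18-M2 polysomal library lay above every total library (9.38% of all genes did so) and for NDI1 every polysomal library lay below, while without RNA 0 members separated in this way (5.68% of all genes).

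**Figure D2:**
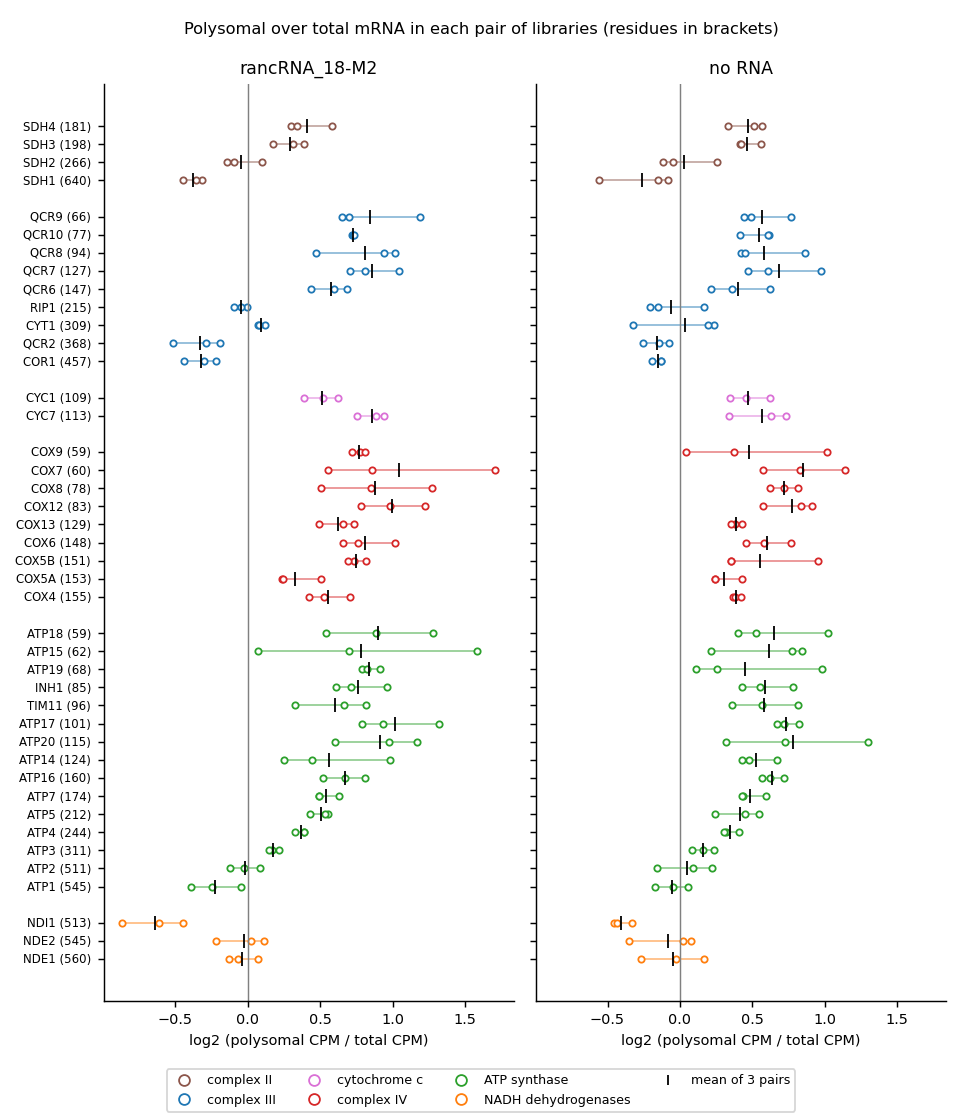
Log2 ratio of polysomal to total CPM in each of the 3 pairs of libraries with the same replicate number (open circles; x axis) for every member, with rancRNA_18-M2 on the left and no RNA on the right; the black tick is the mean of the 3 pairs, and members are grouped by complex and ordered by protein length, given in residues in brackets. Small subunits lay to the right of 0 in all pairs, and the longest members lay around or below 0, with NDI1 below 0 in every pair.

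Complex IV, cytochrome c oxidase, had all 9 members above 0, with 9 of 9 rising in polysomes with rancRNA_18-M2 and 8 of 9 without RNA in the blocked fit. COX26 was not a member and was kept in the list of carriers and other mitochondrial proteins. Its median was 41.0 CPM in polysomal and 62.4 CPM in total mRNA with rancRNA_18-M2. Without RNA it was 43.3 and 49.7 CPM, and the fractions overlapped in both. COX12 (YLR038C, subunit VIb) had 561, 675 and 402 CPM in polysomal and 326, 289 and 203 CPM in total mRNA with rancRNA_18-M2. Without RNA it had 612, 732 and 293 CPM in polysomal and 326, 409 and 196 CPM in total mRNA. With rancRNA_18-M2 all polysomal values lay above all total values, whereas without RNA replicate 3 of the polysomal libraries lay below replicates 1 and 2 of the total ones. Its log2 fold change was 0.99 (SE 0.13, adjusted p = 4.67e-05) with rancRNA_18-M2 and 0.78 (SE 0.13, adjusted p = 0.000629) without RNA by edgeR's quasi-likelihood test with the block.
COX7 stood at 1.06 (SE 0.17) with rancRNA_18-M2 and 0.84 (SE 0.17) without RNA, and COX8 (subunit VIII) at 0.85 (SE 0.14) and 0.72 (SE 0.14). COX6 (subunit VI) had 0.80 (SE 0.13) and 0.60 (SE 0.13) in the same order. The smallest change was that of COX5A, the isoform of subunit V used with oxygen, at 0.33 (SE 0.11, adjusted p = 0.0259) with rancRNA_18-M2 and 0.30 (SE 0.11, adjusted p = 0.0551) without RNA. COX9 rose by 0.77 (SE 0.14) and 0.48 (SE 0.14). The others were COX5B, the hypoxic isoform of subunit V, at 0.75 and 0.55, COX13 (subunit VIa) at 0.63 and 0.38, and COX4 (subunit IV) at 0.54 and 0.39, all called in both.

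Complex III, the cytochrome bc1 complex, split between its small and its large subunits. In the blocked fit the 5 small ones, QCR6 to QCR10, rose in polysomes in both electroporations. None of the 4 large ones did (RIP1, CYT1, QCR2 and COR1). QCR7 (YDR529C), which binds next to cytochrome b, had 1116, 1259 and 616 CPM in polysomal and 636, 609 and 377 CPM in total mRNA with rancRNA_18-M2. Without RNA it had 815, 1341 and 560.3 CPM in polysomal and 589, 684 and 367 CPM in total mRNA. Replicate 3 was low in both fractions, so the groups overlapped while every pair went up. The log2 fold change of QCR7 was 0.85 (SE 0.13, adjusted p = 9.56e-05) with rancRNA_18-M2 and 0.70 (SE 0.13, adjusted p = 0.00102) without RNA. QCR8, QCR9 and QCR10 lay between 0.73 and 0.86 with rancRNA_18-M2 and between 0.55 and 0.58 without RNA, and QCR6, the acidic hinge protein, at 0.58 and 0.40.
COR1 (YBL045C), a core subunit related to mitochondrial processing peptidases, had 327.6, 290.1 and 375 CPM in polysomal and 403.5, 338 and 508 CPM in total mRNA with rancRNA_18-M2. It was lower in all 3 pairs, at -0.32 (SE 0.10, adjusted p = 0.0232 by edgeR's quasi-likelihood test with the block), and at -0.15 (SE 0.10, adjusted p = 0.335) without RNA. QCR2, the other core subunit, had -0.32 (adjusted p = 0.0554) and -0.16 (adjusted p = 0.398). The call for COR1 was lost in 4 of the 6 fits that each left out a rancRNA_18-M2 library (total replicates 1 and 3, polysomal replicates 2 and 3), where its change was -0.34 to -0.25. RIP1, the Rieske iron-sulfur protein, had -0.05 in both electroporations, and CYT1 had 0.09 and 0.06.

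Cytochrome c, the soluble carrier between complexes III and IV, rose in polysomes in both isoforms in the blocked fit. CYC1 (YJR048W), the main form in oxygen, had 229.5, 272 and 57.5 CPM in polysomal and 149, 189.6 and 43.9 CPM in total mRNA with rancRNA_18-M2. Without RNA it had 151, 253 and 58.7 CPM in polysomal and 110.3, 165 and 46.3 CPM in total mRNA. The fractions overlapped widely, since replicate 3 was far below replicates 1 and 2 in both of them. The log2 fold changes were 0.52 (SE 0.12, adjusted p = 0.00346) with rancRNA_18-M2 and 0.47 (SE 0.12, adjusted p = 0.0105) without RNA, where the call was lost without total replicate 1, total replicate 2 or polysomal replicate 2. CYC7, the form favoured at low oxygen, stood at 0.86 (SE 0.10, adjusted p = 2.35e-05) and 0.56 (SE 0.10, adjusted p = 0.000879).

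In the blocked fit, ATP synthase had 12 of 15 members higher in polysomes with rancRNA_18-M2 and 11 of 15 without RNA. Among all 6106 genes, 1023 and 753 were higher in the same order. ATP17 (YDR377W, subunit f of the membrane part) had 506, 676 and 582 CPM in polysomal and 292, 354 and 233 CPM in total mRNA with rancRNA_18-M2. It had 503, 674 and 358 CPM in polysomal and 285.5, 409 and 225 CPM in total mRNA without RNA. The fractions were separate with rancRNA_18-M2 and overlapped without RNA. The log2 fold change was 1.03 (SE 0.13, adjusted p = 3.66e-05) with rancRNA_18-M2 and 0.74 (SE 0.13, adjusted p = 0.000816) without RNA.
Other membrane or stalk subunits that rose in both were ATP18, ATP20 (subunit g), TIM11 (subunit e), ATP14 (subunit h), ATP16 (delta), ATP7 (d), ATP5 (the oligomycin sensitivity protein) and ATP4 (b), besides ATP19 (k). INH1, the inhibitor of the enzyme's ATP hydrolysis, rose by 0.76 (SE 0.11) and 0.58 (SE 0.11). ATP15 varied most between pairs, from 0.07 to 1.58 with rancRNA_18-M2, and passed there (0.75, SE 0.24, adjusted p = 0.0273) but not without RNA (0.64, SE 0.24, adjusted p = 0.0704). The 3 longest subunits did not pass, with adjusted p of 0.15 to 0.916 by edgeR's quasi-likelihood test with the block. ATP3 (gamma) stood at 0.18 and 0.16, ATP2 (beta) at -0.02 and 0.06, and ATP1 (alpha) at -0.23 and -0.05.

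Complex II, succinate dehydrogenase, had its membrane anchors apart from its longer subunits in the blocked fit. The membrane anchor SDH4 (YDR178W) had 605, 556 and 243 CPM in polysomal and 404, 452 and 192 CPM in total mRNA with rancRNA_18-M2, and rose by 0.41 (SE 0.11, adjusted p = 0.0087), with 0.47 (SE 0.11, adjusted p = 0.00566) without RNA. Its partner SDH3 rose without RNA (0.46, SE 0.12, adjusted p = 0.00759) and had 0.30 (SE 0.12, adjusted p = 0.0578) with rancRNA_18-M2. The iron-sulfur subunit SDH2 stood near 0, at -0.04 and 0.04. The flavoprotein SDH1, the longest member, had -0.37 (SE 0.15, adjusted p = 0.0743) and -0.24 (SE 0.15, adjusted p = 0.30); reads that also match its homologue SDH9 may have been counted for either gene.

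The NADH dehydrogenases were the group with no rise. NDI1 (YML120C), the enzyme that faces the matrix, had 129, 119 and 99.4 CPM in polysomal and 176, 216 and 152 CPM in total mRNA with rancRNA_18-M2. Without RNA it had 84.3, 123 and 112 CPM in polysomal and 115.5, 166.5 and 141 CPM in total mRNA. It was lower in polysomes in all 6 pairs, and with rancRNA_18-M2 the fractions did not overlap. The log2 fold change was -0.63 (SE 0.13, adjusted p = 0.00119) and -0.40 (SE 0.13, adjusted p = 0.0346) by edgeR's quasi-likelihood test with the block. Without RNA the call was lost in 4 of the 6 fits that left out a library (total replicates 2 and 3, polysomal replicates 1 and 2), at -0.41 to -0.29. NDE1 and NDE2, which face the space between the membranes, stood at -0.04 and -0.03 with rancRNA_18-M2 and at -0.03 and -0.07 without RNA, with adjusted p of 0.702 to 0.881.

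For rancRNA_18 the polysomal group is 1 library that was deposited under both number 1 and number 2. Its isoform ratios per kb lay outside the range of the other replicate 2 libraries: CYC7 over CYC1 was 2.30 (replicate 2 0.697 to 0.897, replicate 1 1.345 to 2.69), and COX5B over COX5A was 1.30 (replicate 2 0.49 to 0.757, replicate 1 0.841 to 1.33). NDE2 over NDE1 was 0.264, above all replicate 2 (0.102 to 0.1255) and replicate 1 libraries (0.21 to 0.24). Both readings are given, and the calls made as replicate 2 rest on a number from which these 3 ratios depart. With that library as replicate 1, 22 members rose and 1 fell (median 0.60; 8.32 and 3.93% of all genes), and as replicate 2, 14 rose and 5 fell (median 0.36; 16.2 and 13.6%). COX12 was higher on either reading (1.12, SE 0.20, and 0.93, SE 0.20), as were INH1, QCR9 and CYC7, and NDI1 was lower on both (-0.66, SE 0.21, and -0.97, SE 0.21). Members whose level differs most between replicate numbers moved with the choice: CYC1 stood at 0.40 with the library as replicate 1 and -0.12 as replicate 2, and NDE1 at 0.00 and -0.86. Without rancRNA_18 total replicate 1 the members' median was 0.59 (as replicate 1) or 0.36 (as replicate 2). Without total replicate 2 it was 0.59 or 0.38. Calls are not counted in these fits, since each leaves 1 library in either fraction.

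The members were then compared by protein length in the blocked fit. Among the 21 small subunits 21 rose in polysomes with rancRNA_18-M2 and 20 without RNA, and among the 21 large ones 8 rose in each. All genes below 150 residues rose in 54.8 and 43.3% of cases, and all longer genes in 12.6 and 9.02%. With the boundary at 200 residues, 27 and 26 of 28 shorter members rose, and 2 and 2 of 14 longer ones. The log2 fold change and the log2 number of residues had a Pearson r of -0.90 with rancRNA_18-M2 and -0.88 without RNA over the 42 members, against -0.40 and -0.29 over 5744 genes. Within complexes r was -0.94 (complex III, 9 genes), -0.70 (complex IV, 9) and -0.90 (ATP synthase, 15) with rancRNA_18-M2, and -0.91, -0.64 and -0.86 without RNA. These points share the same libraries, and the values are given as a description.
In each class below 200 residues the members' median was above that of all genes of the same length. For proteins of under 100 residues it was 0.82 against 0.59 with rancRNA_18-M2, and 0.58 against 0.36 without RNA, over 12 members and 247 genes. For 100 to 149 residues it was 0.80 against 0.49, and 0.56 against 0.33, over 9 members and 432 genes. Of 450 residues and over, the 7 members had -0.23 against -0.11, and -0.07 against -0.09.

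**Figure D3:**
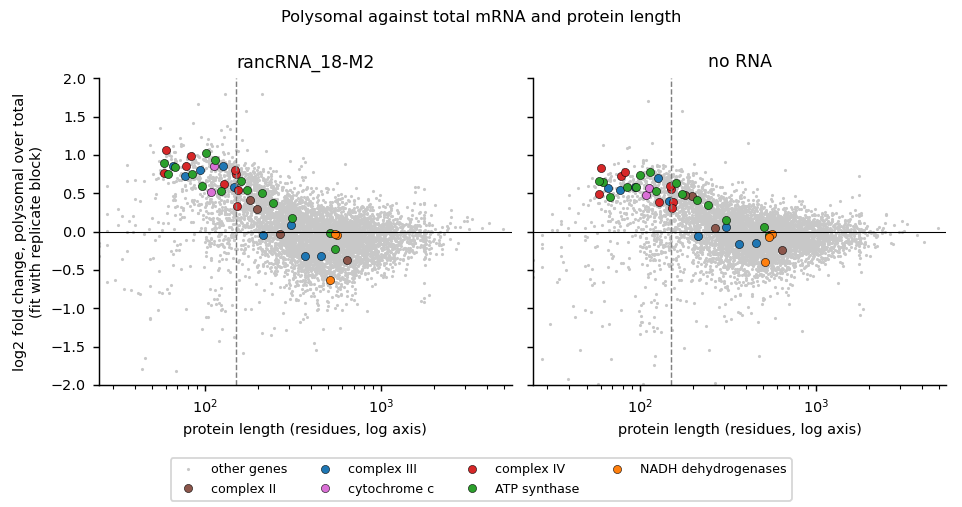
Log2 fold change of polysomal over total mRNA from the fit with the replicate block (y axis) against protein length (x axis, log scale) for 5744 genes (grey) and the 42 members (coloured by complex), with rancRNA_18-M2 on the left and no RNA on the right; the dashed line marks 150 residues, and 7 and 4 genes lie beyond the y axis. Members follow a falling course from small subunits of complex IV and ATP synthase near 0.5 to 1 down to ATP1, SDH1 and NDI1 below 0.

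When a smooth trend of coding length was removed from every library before the blocked fit, most calls were lost. With rancRNA_18-M2, ATP17 (0.43, SE 0.13, adjusted p = 0.0255), CYC7 (0.30, SE 0.10, adjusted p = 0.0495) and COX5B (0.29, SE 0.10, adjusted p = 0.0497) were still higher and NDI1 lower (-0.57, SE 0.13, adjusted p = 0.00553) by edgeR's quasi-likelihood test. Without RNA 0 members passed by the same test, with 5 at an unadjusted p under 0.05. All genes were then called higher in 6.08 and 2.34% and lower in 16.2 and 10.6% of cases. The members' median was 0.10 and 0.11, with 31 and 29 of 42 above 0. For all genes tested it was -0.06 and -0.07, with 2518 and 2341 of 6106 above 0. The small members had 0.15 and 0.15 against -0.05 and -0.08 for all genes below 150 residues.
Most cytosolic ribosomal proteins are short too, and 124 and 120 of 138 rose in polysomes in the blocked fit. With the trend taken from all other genes, an alternative chosen after seeing the data, 5 members rose with rancRNA_18-M2 (QCR7 and COX12 in addition) and NDI1 fell, and 0 passed without RNA. The members' median was then 0.13 and 0.16, against -0.06 and -0.06 for all genes.

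**Figure D4:**
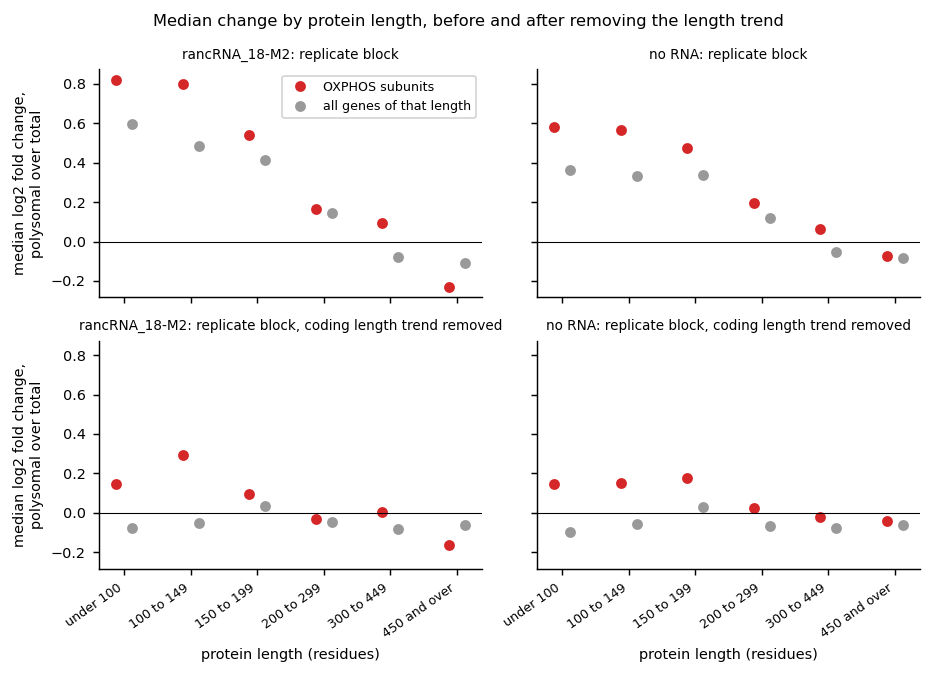
Median log2 fold change of polysomal over total mRNA (y axis) in 6 classes of protein length (x axis) for the OXPHOS subunits (red) and for all genes of the class (grey), with rancRNA_18-M2 on the left and no RNA on the right, before (top) and after (bottom) a trend of coding length was removed in the fit with the replicate block. Below 200 residues the red points lay above the grey ones in all 4 panels, and removing the trend brought the members' class medians to 0.30 or less.

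The other genes of the pathway came from lists chosen with earlier results of these data known. Assembly factors of the complexes had 6 higher and 5 lower of 35 with rancRNA_18-M2, and 3 higher and 6 lower without RNA. PET117, a small protein needed to assemble complex IV, was lower (-0.76, SE 0.12, and -0.72, SE 0.12), although it has 107 residues, and the complex II assembly factor SDH6, with 79 residues, was higher (0.73, SE 0.13, and 0.63, SE 0.13). Tricarboxylic acid cycle enzymes had 0 higher and 3 lower of 13 with rancRNA_18-M2, and 0 and 1 without RNA, with LPD1 at -0.54 (SE 0.12) and -0.35 (SE 0.12). Genes of ubiquinone synthesis had 2 higher and 1 lower of 10 in both, with COQ5 at 0.39 (SE 0.12) and 0.36 (SE 0.12).
A list of carriers and other mitochondrial proteins, POR1 and COX26 among them, had 4 higher and 1 lower of 13 in both. The higher ones included STF1 (86 residues, at 0.86, SE 0.12, and 0.63, SE 0.12) and STF2 (84 residues, at 0.88, SE 0.14, and 0.75, SE 0.14), which act with INH1 on ATP synthase. Activators of mitochondrial translation had 1 higher and 2 lower of 18 with rancRNA_18-M2, and 0 and 2 without RNA. Of 79 mitochondrial ribosomal proteins 16 were higher and 12 lower, and 7 and 8 without RNA, with a median of 217 residues. Of 12 regulators 0 were higher and 2 lower, and 1 and 2 without RNA, with ROX1, the repressor of hypoxic genes, at -0.66 (SE 0.13) in both. Each of these calls is by edgeR's quasi-likelihood test with the block, against the backgrounds given above.

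Whether either RNA changed the level of these mRNAs was tested within each fraction. Without the block 0 of 42 members passed in any of the 6 comparisons, as did 0% of all genes. In total mRNA the members' median log2 fold change was 0.04 for rancRNA_18 and 0.08 for rancRNA_18-M2 against no RNA, and in polysomal mRNA 0.07 and 0.13. The rancRNA_18 total group holds replicates 1 and 2 and no replicate 3, the number in which the members were low, and with the block its direction turned. The median against no RNA in total mRNA was then -0.11 (13 of 42 members above 0) for rancRNA_18 and 0.09 (28 of 42) for rancRNA_18-M2. Set against rancRNA_18-M2, rancRNA_18 total mRNA had a median of -0.12 with 0 of 42 members above 0 in that fit (3199 of 6106 genes were), 0.02 with 24 above 0 without the block, and -0.02 with 20 above 0 when the length trend was removed as well. Without the block all members lay within -0.55 and 0.43 in the 6 comparisons, and 0 of them reached an unadjusted p under 0.05.
With the block 0 members passed either, except where the duplicated library was entered as replicate 2. INH1 had the smallest p, with 256.5 and 303 CPM in rancRNA_18 total mRNA (replicates 1 and 2) and 433, 387 and 241 CPM in no RNA total mRNA (replicates 1 to 3). The rancRNA_18 value was lower in both shared numbers, at a log2 fold change of -0.59 (SE 0.13, unadjusted p = 0.000257, adjusted p = 0.331 by edgeR's quasi-likelihood test with the block), and it was -0.34 (SE 0.39) without the block. NDI1 stood at 0.36 (SE 0.13, adjusted p = 0.639) and CYC7 at -0.26 (SE 0.10, adjusted p = 0.639) when rancRNA_18-M2 total mRNA was set against that without RNA. In polysomal mRNA the same comparison gave ATP19 and COX9 at 0.43 each (SE 0.13 and 0.14, adjusted p = 0.727).
With the duplicated library as replicate 2, 3 members were lower in rancRNA_18 than in no RNA polysomal mRNA (NDE1, CYC1 and SDH1, at -0.79, -0.85 and -0.84), against a background of 3.8% of all genes. Compared with rancRNA_18-M2 on this reading, the members' median was -0.37, against -0.01 for all genes, with CYC1 at -1.08. With that library as replicate 1, these comparisons called 0 members, so no call between electroporations for rancRNA_18 polysomes holds on both readings.
Whether the preference for polysomes itself differed between electroporations was tested by the difference of the fold changes. For rancRNA_18-M2 minus no RNA 0 members and 0% of all genes passed with or without the block, and the median difference was 0.08 with it. ATP19 had the smallest p, at 0.38 (SE 0.18, adjusted p = 1.0), and 32 of 42 members were above 0, against 3213 of 6106 genes. With the length trend removed as well, 19 of 42 members were above 0 and the median was -0.02. For rancRNA_18 minus no RNA 0 members passed without the block or with the library as replicate 1, and as replicate 2 CYC7 was higher (0.79, SE 0.19, adjusted p = 0.0256) and NDE1 lower (-0.82, SE 0.21, adjusted p = 0.0375). CYC7 and NDE1 belong to the pairs whose ratio in this library lay outside the replicate 2 range, and 0 members passed when the length trend was removed as well.

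The levels of these mRNAs also differed between replicate numbers. Replicate 2 was the highest library for 18 of 42 members in all 4 groups of 3 libraries (9.02% of all genes). For 33 members it was the highest in at least 3 of these groups. The share of all genes was computed only for replicate 2 in all 4 groups. The members' median deviation from the group mean was 0.35 in replicate 2, 0.07 in replicate 1 and -0.39 in replicate 3, on the log2 scale, while that of all genes lay within 0.02 of 0 for each number. CYC1 deviated most, by 0.85 in replicate 2 and -1.22 in replicate 3. COX5B and CYC7, the isoforms favoured at low oxygen, were highest in replicate 1 in all 4 groups. NDE2, ATP1 and COR1 were highest in replicate 3 in all 4. The labels do not say what a number stands for.

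The isoform pairs show this on 1 scale. Their coding sequences are 78.1% (CYC7 and CYC1), 69.3% (COX5B and COX5A) and 66.1% (NDE2 and NDE1) identical over the aligned bases, and the sources used here do not say how reads matching both were counted. Per kb of coding length CYC7 was 0.697 to 3.03 times CYC1, with a median of 2.0. In the replicate 2 libraries the ratio was 0.697 to 0.897, and in those of replicates 1 and 3 it was 1.345 to 3.03, so the order of the isoforms turned with the number in each of the 5 groups that hold replicates 1 and 2. The rancRNA_18 polysomal library had 2.30.
COX5B was 0.49 to 1.33 times COX5A with a median of 0.970, and lowest in replicate 2 of each group. NDE2 was 0.102 to 0.264 times NDE1, again lowest in replicate 2. By fraction the ratios overlapped: CYC7 over CYC1 was 1.87 ± 1.08 in polysomal and 1.46 ± 0.84 in total mRNA with rancRNA_18-M2, while without RNA it was 2.12 ± 1.07 in polysomal and 1.97 ± 0.99 in total mRNA (SD, n = 3 each). AAC3, an ADP/ATP carrier expressed at low oxygen, had 1.90 to 4.83 CPM over the libraries.

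**Figure D5:**
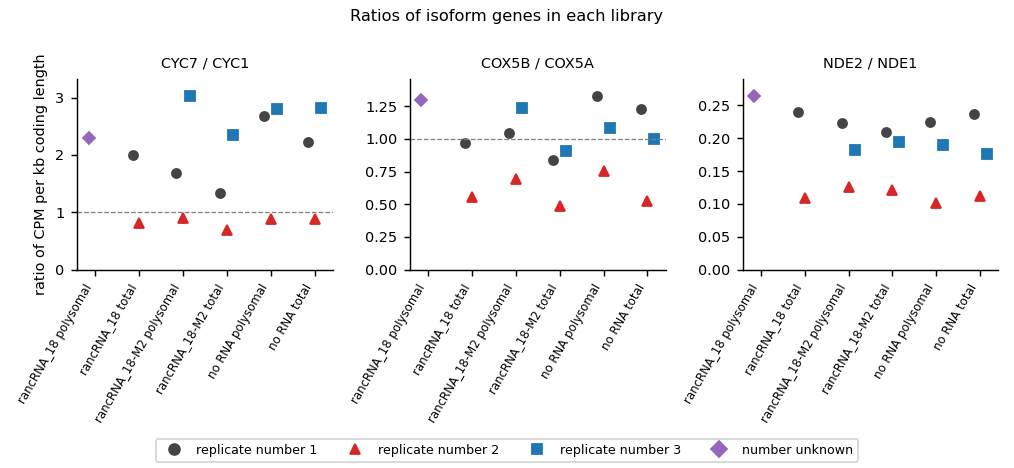
Ratio of CPM per kb of coding length (y axis) of CYC7 to CYC1, COX5B to COX5A and NDE2 to NDE1 in each library, by group (x axis), with the replicate number as symbol; the dashed line marks a ratio of 1. In each pair of genes the replicate 2 libraries (red triangles) had the lowest ratio of their group, and CYC7 was below CYC1 only in those.

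The sequence before these genes shared a feature that their choice did not use. The letters CCAAT, the core of the HAP complex's binding motif, were searched on both strands in the 300 bases before the start codon in RefSeq R64. They occurred at 36 of 42 members (85.7%) and at 41.7% of 6021 genes. The longer form CCAATNA, each match of which is also a CCAAT match, occurred at 30 members (71.4%) and at 14.9% of genes. By complex it was found at 13 of 15 ATP synthase genes, 8 of 9 of complex IV, 5 of 9 of complex III, 2 of 4 of complex II, 2 of 3 NADH dehydrogenases and 0 of 2 cytochrome c genes. A match is a run of letters and not a measured binding site. Only these exact letters within 300 bases were searched, so a gene without a match may still hold a site. HAP4, the activating subunit of the complex, had 73.1 to 103 CPM over the libraries.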

How the data were processed

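Reads of poly(A) mRNA were counted per gene in the polysomal and total libraries described above. The counts came from the deposited files, 1 table of raw read counts per gene and sample with no normalization by the authors; FastQC, HISAT2 and featureCounts are named in the submitters' processing notes. The sources used here do not give the build, annotation or strand option of the counting. Per the labels' protocols, libraries were made with a stranded kit. Of 7126 gene IDs, 6048 matched RefSeq R64, used for names, coding length and sequences only. The 2 rancRNA_18 polysomal files held equal counts in every gene, which left 15 libraries of the 16 planned.

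Counts were tested with edgeR 4.0.16 (TMM scaling, filterByExpr, quasi-likelihood test, R 4.3.3) in a fit over all 6 groups, 6106 genes, with Benjamini-Hochberg adjusted p under 0.05 as a call and 9 residual degrees of freedom. A group of 1 library borrows its spread from the others. Replicate numbers, shared in the titles, paired the samples by the data and not by a statement in the labels. Deviations from group means cancel within a group, so a high correlation for the same number lowers that for different numbers. The correlation was 0.0296 or less in 52 pairs with different numbers and 0.429 or more in 26 of 26 pairs with the same number. A fit with the number as a block (7 degrees of freedom) therefore stands beside the planned one, with the duplicated library as number 1 and as number 2.

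The length alternative subtracted a lowess trend (span 0.5) of log2 ratio on log2 coding length from each library as an offset. DESeq2 1.42.0 was an alternative. The fits were tested on simulated data before use. Named genes are, per complex, up to 4 with the smallest p in the blocked fit without RNA and all lower ones, the isoform pairs, the highest and lowest per length, and up to 3 per direction between electroporations; members named beyond these complete a complex and were chosen after their values were seen. The members and lists were chosen with earlier results of these data known. No spike-in is named, so values are relative, and read counts of PCR libraries bound counting error only.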

Additional observations from a re-analysis of the deposited data

How the results depend on the processing

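The replicate block decided most calls. Without it 0 members passed between polysomal and total mRNA; with it 31 passed with rancRNA_18-M2 and 29 without RNA, and 34 and 31 when only the contrast's own groups were fitted. For rancRNA_18 the replicate block gave 23 with the duplicated library as replicate 1 and 19 as replicate 2. DESeq2 without the block gave 4 with rancRNA_18-M2. Removing the coding length trend with the replicate block gave 4 with rancRNA_18-M2, 0 without RNA, and for rancRNA_18 0 as replicate 1 and 7 as replicate 2. With that library as replicate 2 under the block, rancRNA_18 against no RNA in polysomes gave 3 (3 with the length trend removed), rancRNA_18 against rancRNA_18-M2 gave 10, all lower (9 with the trend removed, 2 higher and 7 lower), and the difference of fold changes against no RNA gave 2 (0). Of all 6106 genes, these comparisons called 294 higher and 232 lower, 455 and 413, and 101 and 68, in the same order. With the trend removed they called 292 and 257, 503 and 400, and 75 and 56. The block changed no other call of the 11 comparisons, and leaving out a library without the block gave 0 to 0 members in each.

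In the fit with the replicate block, with alternatives added after seeing the data, all 29 members called without RNA and all 31 with rancRNA_18-M2 kept their call with DESeq2 and with RLE scaling, and without the filter 28 and 30 did. Leaving out single libraries of the contrast, 18 of 29 and 26 of 31 kept it each time. With the length trend removed, COX13 (-0.0061) and ATP19 (-0.0076) without RNA and TIM11 (-0.013), CYC1 (-0.054) and COX5A (-0.12, and -0.073 with the trend from genes other than ribosomal proteins) with rancRNA_18-M2 fell below 0. The cause of the pairing by number was not tested. The single rancRNA_18 polysomal library limits every comparison that uses it. The least covered member had 462 reads in a library, and the effect of depth was not tested.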
